A study of Mus musculus with 21 samples.

Results

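Crxos is a mouse homeobox gene, 1 of the 31053 Ensembl gene IDs counted in each of 21 libraries and 1 of the 10643 that passed the filter on low counts. It was chosen by its measured counts, as the gene that separated CH+LIF HP from CH+LIF LP. Its values in the CH+LIF libraries are therefore given as a description, and its tests were made between groups of the other media. The fit behind those tests took its estimate of spread from all 21 libraries, the CH+LIF libraries included. The cells were E14Tg2a, an established line of male mouse embryonic stem cells from the 129 strain; they carry a GFPd2 reporter, a short-lived green fluorescent protein, knocked into 1 allele of the naive-state gene Rex1. All groups shared that genotype and a starting medium, NDiff227 with 3 µM CHIR99021 and 1 µM PD0325901, after which CH, PD and LIF were given and withdrawn in alternation at each passage. CHIR99021 (CH) inhibits GSK3 and so raises Wnt/beta-catenin signalling, PD0325901 (PD) inhibits MEK and so lowers ERK signalling, and LIF is a cytokine that activates STAT3. The 7 groups of 3 replicates were named by medium and by PO, LP or HP: 2i+LIF PO, 2i+LIF LP, 2i+LIF HP, CH+LIF LP, CH+LIF HP, LIF LP and LIF HP. The series sampled zero passage, 1 month and 2 months of culture; PO was read as zero passage, and LP and HP could not be matched to 1 or 2 months from the labels. All libraries came from 1 line, and nothing in the labels said whether replicates were separate cultures, so p-values measure the spread between these libraries, which may be technical.

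Homeobox genes encode transcription factors that bind DNA through the homeodomain. Crxos, whose name stands for Crx opposite strand, belongs to the fast-evolving paired-like homeobox genes that are transcribed mainly in eggs and embryos before implantation, and it is also transcribed in embryonic stem cells. Its neighbour Crx encodes a factor of photoreceptors, and the Obox genes next to it are a related family of eggs and early embryos.

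In GENCODE M21 on GRCm38, Crxos (ENSMUSG00000074365) spans chromosome 7, 15882617 to 15904020, on the plus strand, as a protein-coding gene with 6 transcripts. Its span overlaps no other annotated gene, and the nearest listed gene, Crx, lies 2649 bp away on the minus strand. RefSeq (GRCm38.p6) gives 3 start sites within it, at the starts of 3 of those transcripts, and the counts of a gene sum over all of them. The 250 bases before 2 of these starts are shown because they are the windows with letters recognised by factors of the pathways that the media act on. Capitals mark CTTTGA, a core that TCF/LEF factors of the Wnt pathway bind, in the window at chr7:15895874-15896123, and TTCNNNGAA, a pattern that STAT factors bind, in the window at chr7:15901396-15901645. Both windows are given 5′ to 3′ on the plus strand.
Crxos middle start: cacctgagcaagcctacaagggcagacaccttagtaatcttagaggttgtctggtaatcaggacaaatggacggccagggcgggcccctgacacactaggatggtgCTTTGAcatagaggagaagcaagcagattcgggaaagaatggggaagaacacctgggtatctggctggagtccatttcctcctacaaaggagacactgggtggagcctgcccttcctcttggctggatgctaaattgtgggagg
Crxos last start: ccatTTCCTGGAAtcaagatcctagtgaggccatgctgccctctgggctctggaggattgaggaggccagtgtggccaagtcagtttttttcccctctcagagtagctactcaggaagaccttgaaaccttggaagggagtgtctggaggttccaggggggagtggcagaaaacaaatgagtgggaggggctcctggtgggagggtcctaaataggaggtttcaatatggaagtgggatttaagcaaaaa
CTTTGA lay at chr7:15895980-15895985 and the STAT pattern at chr7:15901400-15901408. Of 32851 windows of the same length before RefSeq starts, 13.8% held CTTTGA on either strand and 7.02% held the STAT pattern, so both are common. The window before the start at 15882617 held none of the 5 motifs searched. The others were AAGGTCA for ESRRB and NR5A2, ATGCAAAT for octamer factors and TAATCC for CRX and OTX factors, which 4.08%, 1.6% and 6.25% of windows held and none of the 3 Crxos windows did. The motifs were chosen with expression results known, and a match describes the letters alone.

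Gene counts per library ranged from 1132126 to 3783043 (median 1763531). 2 libraries stood apart: in 2i+LIF PO replicate 1, mitochondrial genes took 39.1% of gene counts, and in 2i+LIF LP replicate 1, the RNA gene Gm42418 took 31.7%. By their file names the PO libraries had a sequencing run of their own, so PO and run cannot be told apart. Defining genes of pluripotent cells were counted in all 21 libraries, with 373 to 1413 CPM (a gene's counts over the library size, scaled by TMM, times 1e+06) of Sox2, 99.7 to 579 of Nanog and 25.9 to 99.2 of Pou5f1. These are bulk libraries, in which a lower value can come from fewer cells with the transcript or from less of it per cell, and these cannot be told apart. Targets of the pathways that the media act on went in part against the names of the media. Dusp6, a target of ERK signalling, held 0 to 1.23 CPM in LIF HP, a medium without PD by its name, and 34.4 and 26.3 CPM in 2i+LIF LP replicates 2 and 3, whose 2i names CH with PD, where PO held 2.24 to 3.69. Cdx1, a target of Wnt signalling, held 31.9 to 38.1 CPM in LIF HP, without CH by its name, and 3.82 to 6.49 CPM in CH+LIF HP. Whether those labels are right was not tested, and each comparison between media below is between libraries as labelled.

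Crxos was counted in every library and was higher in all 9 HP libraries than in all 9 LP libraries. HP libraries held 73.9 to 794 CPM (median 257) and LP libraries 3.98 to 53.3 CPM (median 12.9). The lowest HP library stood 1.39 times above the highest LP library. The highest library of the series stood 199 times above the lowest. Among the genes tested, 23 (0.216%) had every HP library above every LP library of any medium, a count into which the CH+LIF libraries that chose Crxos enter. Over 2i+LIF and LIF alone, 196 genes (1.84%), Crxos among them, had every HP library above every LP library.

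In 2i+LIF, the 3 HP libraries held 310, 543 and 794 CPM of Crxos and the 3 LP libraries 53.3, 20.7 and 29.1 CPM. All HP libraries were above all LP libraries, which held for 8.43% of genes tested in that direction. The HP mean was 549 ± 242 CPM (SD, n = 3) and the LP mean 34.3 ± 16.9 CPM (SD, n = 3). The rise was 16.1-fold (log2 fold change 4.01, SE 0.47, edgeR quasi-likelihood test, Benjamini-Hochberg adjusted p 2.42e-05). In that contrast 3.67% of genes were called, 1.63% as higher, and Crxos ranked 2 by p. Without both libraries that stood apart, the log2 fold change was 4.48 (SE 0.46, adjusted p 1.3e-07).

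In LIF, the HP libraries held 174, 280 and 257 CPM and the LP libraries 10.5, 3.98 and 9.14 CPM. The groups did not overlap, as for 20.1% of genes in that direction. The lowest value rested on 6 counts, with a 95% Clopper-Pearson interval of counting error of 1.46 to 8.67 CPM, so its upper bound was still far under every HP library. The HP mean was 237 ± 55.9 CPM (SD, n = 3) and the LP mean 7.86 ± 3.42 CPM (SD, n = 3). The rise was 29.4-fold (log2 fold change 4.88, SE 0.51, edgeR, adjusted p of 1.81e-06). Here 9.96% of genes were called, 5.33% as higher, and Crxos ranked 3 by p.

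The 2i+LIF and LIF contrasts share no library. The rise in LIF exceeded that in 2i+LIF by 0.87 on the log2 scale (SE 0.63), and this difference did not pass the test (edgeR interaction, adjusted p 0.628), in which 0.15% of genes were called. Crxos was 1 of 56 genes (0.526% of those tested) called higher in HP in both media. These 56 were 32.4% of the 173 called higher in 2i+LIF HP and 9.88% of the 567 called higher in LIF HP, and there were 129 without both libraries that stood apart.

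In CH+LIF, the contrast that chose the gene, the HP libraries held 158.3, 113 and 73.9 CPM and the LP libraries 9.69, 16.9 and 12.9 CPM. The means were 115 ± 42.3 and 13.2 ± 3.64 CPM (SD, n = 3 each), 8.73-fold apart (log2 change 3.13, SE 0.47). The rule took the gene with an edgeR adjusted p under 0.05 there, 0.00561 for Crxos, which was 0.0094% of genes. Just outside lay Zmat3, a p53-responsive zinc finger gene, with an adjusted p of 0.0548 and a log2 fold change of -1.92. In CH+LIF, 7.95% of genes had all HP libraries above all LP libraries.

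**Figure D1:**
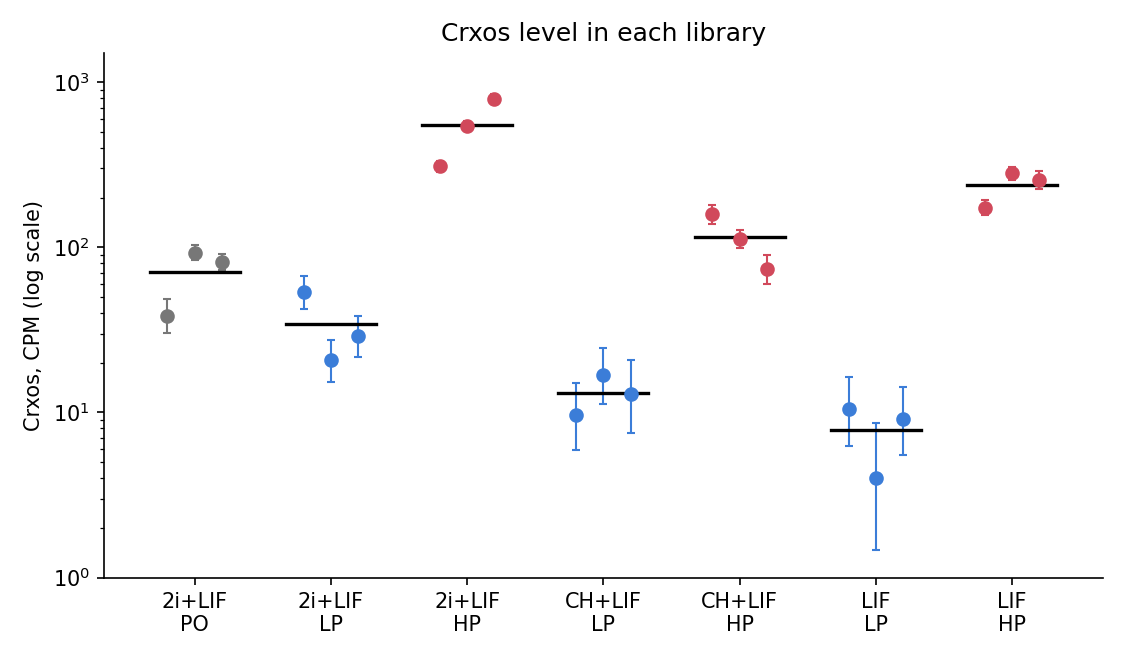
Crxos in each of the 21 libraries, in CPM on a log axis, by group, with replicates 1 to 3 from left to right. Points are libraries, bars are 95% Clopper-Pearson intervals of counting error and black lines are group means. All HP libraries (red, 73.9 to 794 CPM) lie above all LP libraries (blue, 3.98 to 53.3 CPM), with PO (grey) at 38.5 to 92.6 CPM.

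The PO libraries, read as zero passage, held an intermediate level of Crxos. They had a sequencing run of their own, so every contrast with PO compares runs as well as stages. The 3 PO libraries held 38.5, 92.6 and 81.5 CPM (mean 70.9 ± 28.6, SD, n = 3), of which the lowest was the library rich in mitochondrial counts. Without TMM scaling that library held 24.3 CPM. Both LIF HP and 2i+LIF HP lay wholly above PO, as 17% and 13.1% of genes did. 2i+LIF HP was 7.69-fold above PO (log2 change 2.94 with an SE of 0.45, adjusted p 0.00015 by edgeR, 10.6% of genes called). LIF HP was 3.32-fold above PO (log2 change 1.73 with an SE of 0.43, adjusted p 0.011 by edgeR, 12.3% called), and this call ended without PO replicate 1 (1.41, adjusted p 0.0565), without LIF HP replicate 2 (1.57, adjusted p 0.0589) and without TMM (1.40, adjusted p 0.0532).

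LIF LP lay wholly below PO, with all PO libraries above all LIF LP libraries as for 15.3% of genes. Crxos was 8.86-fold lower there (log2 fold change -3.15, SE 0.48, edgeR, adjusted p of 0.000193, 12% of genes called). 2i+LIF LP and PO overlapped, since LP replicate 1 at 53.3 CPM was above PO replicate 1 at 38.5 CPM. These are the libraries that stood apart. The log2 fold change of 2i+LIF LP against PO was -1.06 (SE 0.43, edgeR, adjusted p of 0.147, 5.06% called), without PO replicate 1 it was -1.33 (adjusted p 0.045), and without both libraries it was -1.82 (SE 0.43, adjusted p 0.00862). CH+LIF LP was 5.4-fold below PO and CH+LIF HP 1.62-fold above it, given as a description.

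At HP the order of media was 2i+LIF, LIF and CH+LIF. All 2i+LIF HP libraries were above all LIF HP libraries, as for 13.5% of genes, and all LIF HP libraries were above all CH+LIF HP libraries, as for 15.3%. LIF HP was 2.32-fold below 2i+LIF HP (log2 fold change -1.21, SE 0.42), which did not pass the test with all libraries (edgeR adjusted p 0.103, 3.78% called). It passed without both libraries that stood apart (-1.23, SE 0.33, adjusted p 0.0131), without PO replicate 1 alone (adjusted p 0.049) and without 2i+LIF LP replicate 1 alone (adjusted p 0.0455). The coefficient of variation over the 3 libraries was 44.1% in 2i+LIF HP, 23.6% in LIF HP and 36.8% in CH+LIF HP. In the other groups it was 49.3% in 2i+LIF LP, 27.6% in CH+LIF LP, 43.5% in LIF LP and 40.3% in PO.

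At LP the order was 2i+LIF, CH+LIF and LIF. All 2i+LIF LP libraries were above all LIF LP libraries, as for 7.19% of genes, and above all CH+LIF LP libraries, as for 5.94%. LIF LP was 4.24-fold below 2i+LIF LP (log2 change -2.08 with an SE of 0.48, edgeR, adjusted p of 0.0432, 0.489% called). This call lay near the threshold and ended without any of 12 libraries. Without 2i+LIF LP replicate 1 the value was -1.61 (adjusted p 0.231), and without LIF LP replicate 1, 2 or 3 it was -2.32, -1.79 or -2.20 (adjusted p 0.0965, 0.34 or 0.15). It also ended, at -2.10 to -2.08 and an adjusted p of 0.0503 to 0.0654, when any of 8 libraries of other groups was left out: 2i+LIF PO replicate 3, CH+LIF LP replicates 2 and 3, 2i+LIF HP replicate 2, CH+LIF HP replicate 2 and LIF HP replicates 1, 2 and 3. Without TMM the adjusted p was 0.141, with only the groups compared 0.306 and with limma-voom 0.118. CH+LIF LP (9.69 to 16.9 CPM) and LIF LP (3.98 to 10.5 CPM) overlapped.

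From the highest to the lowest mean the groups ran 2i+LIF HP, LIF HP, CH+LIF HP, 2i+LIF PO, 2i+LIF LP, CH+LIF LP and LIF LP. The neighbours that overlapped in this order were CH+LIF HP with PO, PO with 2i+LIF LP, and CH+LIF LP with LIF LP. The highest mean was 69.8 times the lowest. Any difference among the 5 groups without CH+LIF passed the test (edgeR F 49.4, adjusted p 1.64e-08), as it did for 28% of genes.

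**Figure D2:**
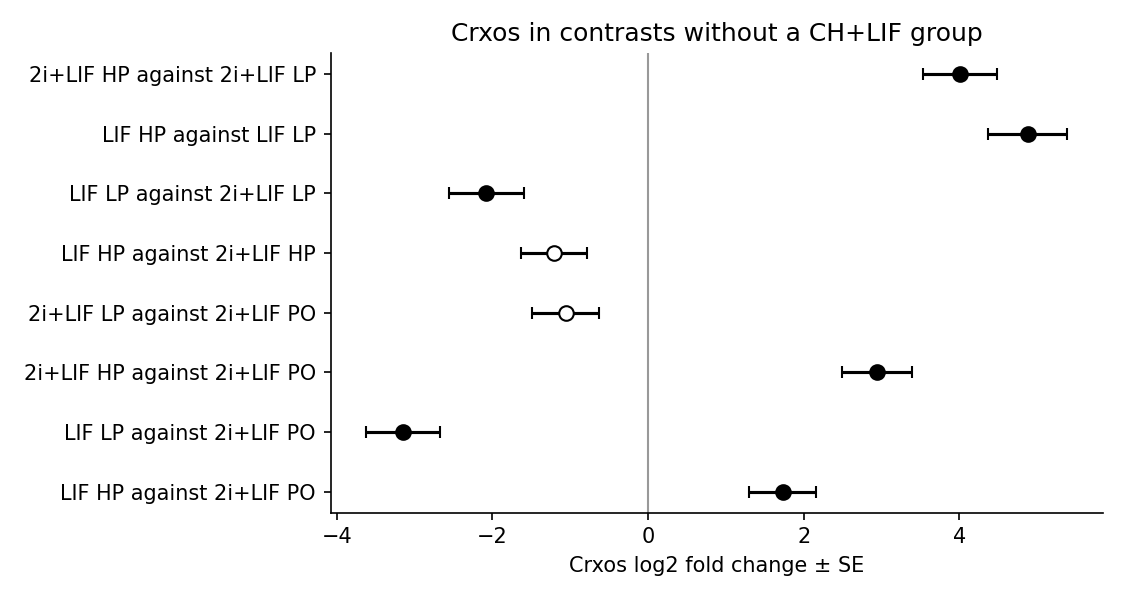
Log2 fold changes of Crxos (x axis) with their standard errors in the 8 contrasts between pairs of groups without CH+LIF (y axis), 3 libraries a group. Filled points had an edgeR adjusted p under 0.05 and open points did not. HP against LP gave 4.01 in 2i+LIF and 4.88 in LIF, and the open points are LIF HP against 2i+LIF HP (-1.21) and 2i+LIF LP against PO (-1.06).

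The genes around Crxos were mostly too low to test. Crx had 1 count over all 21 libraries, in LIF HP. The egg and early-embryo genes Obox3 and Obox5 had 0 counts in every library, as had the RNA genes Obox4-ps35 and Gm38948, and Obox6 had at most 1.92 CPM in any library. Reads that aligned to several places, 20.8% to 35.5% of all entries in a library's table, were not assigned to a gene, so near-identical copies such as the Obox genes can be listed at 0 while transcribed. Of the 14 genes other than Crxos that were counted within 250 kb, 4 passed the filter, and none of these 4 was called in HP against LP in 2i+LIF or LIF by edgeR, beside 3.67% and 9.96% of all genes, so that 0 of 4 is near the share of all genes. Selenow, which encodes a small selenoprotein and lies 13188 bp from Crxos, had log2 fold changes of 1.03 (SE 0.56, adjusted p 0.361) in 2i+LIF and 1.39 (SE 0.57, adjusted p 0.118) in LIF. Napa, an adaptor of vesicle fusion, had 0.04 (SE 0.37) and 1.07 (SE 0.37, adjusted p 0.0624). Nop53, a ribosome assembly factor, had -0.36 and 0.03, and Kptn, an actin-associated protein, had 0.09 and -0.24. Correlations with Crxos over the 21 libraries, in log2 CPM, were 0.586 for Selenow, 0.297 for Napa, -0.0368 for Nop53 and -0.123 for Kptn.

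Most of its homeobox relatives were too low to test. Of 13 paired-like homeobox genes listed, 7 had 0 counts in every library and 1 passed the filter. This was Otx2, a factor of the later epiblast and of the anterior embryo, which ran opposite to Crxos. Otx2 held 13.8, 7.3 and 13 CPM in LIF LP and 0, 3.7 and 0 CPM in LIF HP, with no overlap, and fell by 3.06 on the log2 scale (SE 0.82, edgeR, adjusted p of 0.0195). In 2i+LIF its log2 fold change was -2.55 (SE 0.76, adjusted p 0.0587), and in CH+LIF 0.14 (SE 0.61). Gsc, a factor of the gastrula organiser, did not pass the filter; it held 4.64, 14.8 and 4.12 CPM in LIF HP with 0 counts in LIF LP, 1.64 to 5.11 CPM in 2i+LIF HP and 0 to 4.91 in 2i+LIF LP, and 0 counts in CH+LIF. Without both libraries that stood apart, 1 listed gene was called lower in 2i+LIF, and 1 higher and 1 lower in LIF. That fit called more of all genes: 2.72% higher and 3% lower in 2i+LIF, and 11.5% higher and 10.2% lower in LIF.

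The genes whose levels ran most like Crxos were named by a fixed rule: the 8 highest and 4 lowest Pearson correlations in log2 CPM over 21 libraries, among 10515 genes with a mean of at least 5 CPM in a group. They were chosen for likeness, and the CH+LIF libraries that chose Crxos enter the correlations, so the values are a description. Over the 15 libraries without CH+LIF, r was 0.882 to 0.951 for the 8 and -0.938 to -0.907 for the 4. The median correlation of all 10515 genes was -0.00392, with 54 genes at 0.8 or more and 47 at -0.8 or less. Libraries of a group share their culture condition, and these correlations mostly follow the differences between groups.

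Tnni1, the slow skeletal troponin I, ran closest (r 0.939). It held 68.3, 170 and 182 CPM in 2i+LIF HP against 0.701, 0.431 and 2.8 in 2i+LIF LP, and 24.2, 34.5 and 44.3 CPM in LIF HP with 0 counts in the 3 LIF LP libraries. In CH+LIF it held 19.5, 10.5 and 2.28 CPM at HP and 0.969, 0.605 and 1.52 at LP. HP was thus above LP without overlap in all 3 media, as for 88 genes (0.827%) of those tested. In CH+LIF this rested on few counts, 3 in HP replicate 3 and 2 in LP replicate 3.

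Gpnmb, a membrane glycoprotein of melanosomes and lysosomes (r 0.894), held 67.4, 358 and 504 CPM in 2i+LIF HP and 23.8, 37.5 and 50.3 in 2i+LIF LP. In LIF it held 97.4, 63.4 and 88.6 CPM at HP and 3.3, 0.664 and 1.92 at LP. Like Crxos, its lowest 2i+LIF HP library was replicate 1.

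Gabarapl2, an autophagy protein of the ATG8 family (r 0.886), was another of the 23 genes with every HP library (122 to 484 CPM) above every LP library (62.4 to 92.3 CPM). The other like genes were Cd3d, a subunit of the T cell receptor complex (r 0.904), the interferon-induced Ifi35 (0.903), Srarp, a steroid receptor-associated protein (0.892), the predicted gene Gm31659 (0.888) and Epp13, an epididymal protein (0.887). Several rested on few counts, with 233 for Ifi35 and 417 for Srarp over all libraries.

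Running opposite were Zdbf2, an imprinted gene (r -0.895), Dgkh, a diacylglycerol kinase (-0.889), Tle4, a Groucho co-repressor (-0.888), and Rnf165, a ubiquitin ligase (-0.887). Zdbf2 held 40.3 to 57.2 CPM in 2i+LIF HP, 56 to 72.1 in LIF HP and 189 to 243 in CH+LIF HP. In LP it held 75, 331 and 370 CPM in 2i+LIF, 273 to 422 in CH+LIF and 332 to 378 in LIF. Its low LP value was that of 2i+LIF LP replicate 1, the LP library with most Crxos and a library that stood apart. PO replicates 1 to 3 held 260.6, 120.8 and 113.2 CPM of Zdbf2, and replicate 1 was the other library that stood apart. After group means were removed, the correlation with Crxos was -0.715 for Zdbf2, 0.381 for Tnni1, 0.642 for Cd3d and 0.625 for Gabarapl2.

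**Figure D3:**
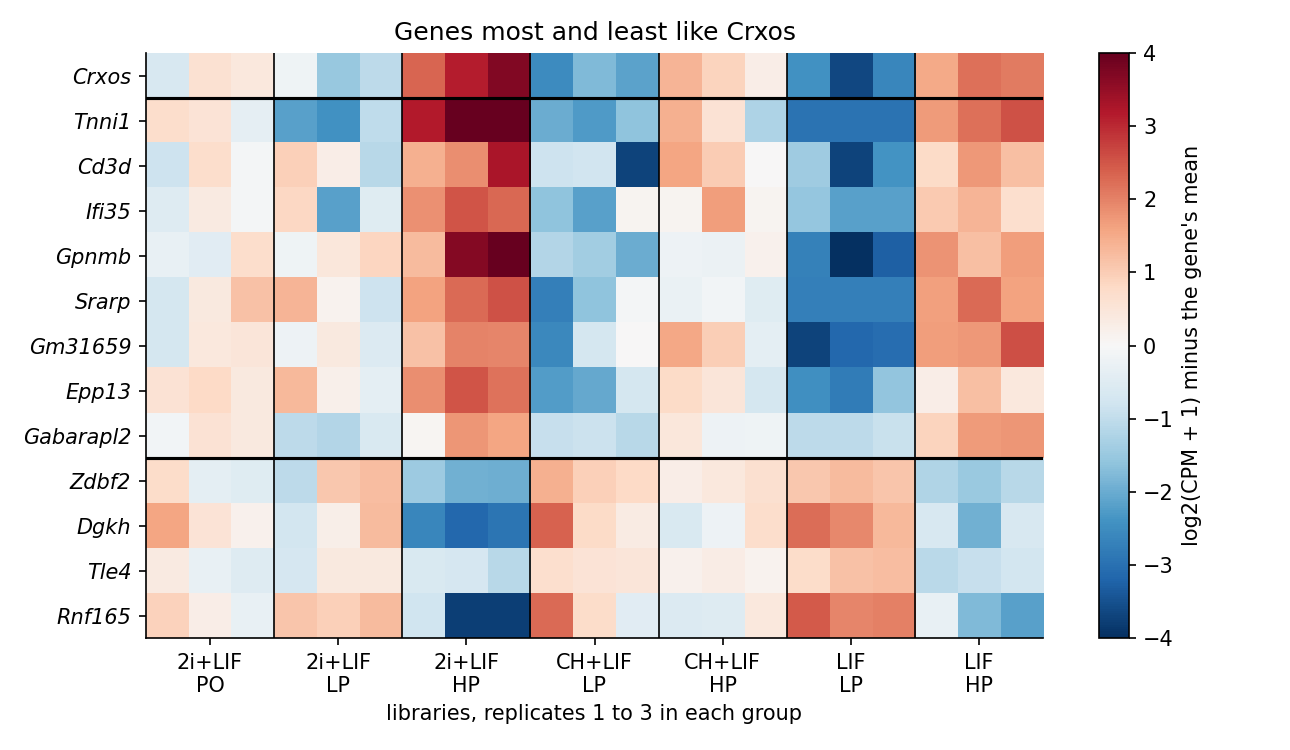
Log2(CPM + 1) less the gene's own mean (colour, from -4 in blue to 4 in red) in the 21 libraries (columns, by group) for Crxos (top row), the 8 genes most like it and the 4 least like it (bottom rows). The colour scale ends at 4 in each direction, so values beyond it are drawn at its end. By group mean, the 8 like genes were highest in 2i+LIF HP and LIF HP and lowest in LIF LP, and the 4 unlike genes were highest in LIF LP.

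Genes that Wnt/beta-catenin signalling is known to induce ran with Crxos. All 7 listed passed the filter, with a median correlation with Crxos of 0.72 (0.718 without the CH+LIF libraries). In 2i+LIF 5 of 7 rose in HP against LP and none fell, beside 1.63% and 2.05% of all genes, and in LIF 3 of 7 rose and none fell, beside 5.33% and 4.63%. Of the 5, T, Lef1 and Nkd1 passed the filter only through their highest group, so their calls add no support. The numbers called, 5 and 3, did not change without both libraries that stood apart, where 2.72% and 11.5% of all genes were called higher.

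Sp5, a zinc finger factor that beta-catenin induces directly (r 0.872), held 135, 494 and 455 CPM in 2i+LIF HP and 62.4, 18.5 and 8.39 in 2i+LIF LP (log2 fold change 3.62, SE 0.69, edgeR, adjusted p of 0.00261). In LIF it held 19.6, 30.2 and 23.7 CPM at HP, with 2 counts in all at LP (adjusted p 0.00176). In CH+LIF it held 46.7, 33.4 and 17.5 CPM at HP and 0.969, 0.605 and 1.52 at LP. HP was above LP without overlap in each medium, as for 0.827% of genes tested. Its order at HP differed: LIF HP (24.5 ± 5.34 CPM, SD, n = 3) did not exceed CH+LIF HP (32.5 ± 14.6).

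Cdx1, a caudal homeobox factor (r 0.811), held 31.9, 36.3 and 38.1 CPM in LIF HP and had 0 counts in LIF LP (edgeR adjusted p 0.000385). In 2i+LIF it held 32.5, 70.3 and 15.3 CPM at HP and 0, 9.04 and 6.71 at LP (log2 fold change 2.84, SE 0.78, adjusted p 0.0391). In CH+LIF it held 6.49, 3.82 and 6.09 CPM at HP and 0.484, 0 and 2.28 at LP. T (Brachyury), Lef1 and Nkd1 passed the filter only through 2i+LIF HP, so their levels are a description. They held 22.4 ± 12.4, 35 ± 13.3 and 20.2 ± 14.7 CPM there (SD, n = 3 each). In 2i+LIF LP they held 1 ± 1.74, 2.64 ± 0.895 and 0.99 ± 0.879 CPM. Axin2, a feedback inhibitor of the pathway, rose in LIF (edgeR adjusted p 0.0274) to 9.06 ± 3.12 CPM (SD, n = 3). It held 5.53 ± 0.876 CPM in CH+LIF HP and 5.16 ± 5.32 in CH+LIF LP. Notum, a secreted Wnt inhibitor, did not pass in either medium and was highest in PO (16.7 ± 7.52 CPM, SD, n = 3).

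Genes that ERK signalling is known to induce ran against Crxos, with a median correlation of -0.632 over the 6 of 7 that passed the filter (-0.66 without the CH+LIF libraries). In 2i+LIF 4 of the 6 fell in HP against LP and in LIF 5 of the 6 fell, and none rose, beside 2.05% and 4.63% of all genes called lower. The numbers called, 4 and 5, did not change without both libraries that stood apart, where 3% and 10.2% of all genes were called lower. Dusp6, an ERK phosphatase (r -0.618), held 0.701, 34.4 and 26.3 CPM in 2i+LIF LP and 2.32, 4.91 and 2.88 in 2i+LIF HP, a log2 change of -2.60 with an SE of 0.72 (adjusted p 0.0392 by edgeR). The first of those LP libraries was again replicate 1, a library that stood apart, at 53.3 CPM of Crxos. In LIF, Dusp6 held 20.4, 15.3 and 47.1 CPM at LP and 0, 1.23 and 0 at HP (adjusted p 0.000568). Both the low LIF HP values and the high 2i+LIF LP values go against the names of the media.

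In CH+LIF the median log2 fold change of the ERK targets was -0.08, given as a description, since that contrast chose Crxos. Dusp6 held 33.4, 41.8 and 38.7 CPM at LP and 30.5, 40.5 and 40.4 at HP, so that these groups overlapped. In PO, Dusp6 was low (2.24 to 3.69 CPM) and Crxos was intermediate. Etv4, an ETS factor, fell by 1.82 on the log2 scale in 2i+LIF (SE 0.36, edgeR, adjusted p of 0.004) and by 3.22 in LIF (SE 0.40, adjusted p 1.3e-05). Etv5 passed in neither, with log2 fold changes of 0.28 and -0.21.

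The LIF-STAT3 targets had 4 of 5 genes past the filter, and none was called in either medium, beside 3.67% and 9.96% of all genes. Their median correlation with Crxos was -0.552, with Socs3, the feedback inhibitor of the pathway, at -0.579. Without both libraries that stood apart, 2 were called lower in 2i+LIF HP, beside 3% of all genes.

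Factors of naive pluripotency were mixed. All 17 passed the filter, their median correlation was -0.15, and 1 rose and 1 fell in each medium, beside 1.63% higher and 2.05% lower of all genes in 2i+LIF and 5.33% and 4.63% in LIF, so the LIF count was near the share of all genes. Dppa3 (Stella), a maternal factor that protects DNA methylation (r 0.747), held 36.7, 142.8 and 73.8 CPM in 2i+LIF HP and 6.31, 0.431 and 0.559 in 2i+LIF LP (edgeR adjusted p 0.00198), and passed the filter only through the former. In LIF HP it held 0, 2.46 and 5.15 CPM, so its high level was in 2i+LIF HP, while Crxos was high in LIF HP as well. Tbx3 fell in 2i+LIF by 1.91 on the log2 scale (SE 0.36, adjusted p 0.00215), Tfap2c rose in LIF by 1.70 (SE 0.39, adjusted p 0.00739) and Sall4 fell in LIF by 1.19 (SE 0.38, adjusted p 0.0475). Nanog (r 0.217) and Pou5f1 (r 0.122) passed in neither medium. Without both libraries that stood apart, 3 of the 17 were called higher and 3 lower in LIF, beside 11.5% and 10.2% of all genes.

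Most genes of cleavage-stage embryos were too low to test, and many of them (Zscan4, Tcstv, Usp17l, Tdpoz) have near-identical copies whose reads the counting could leave out. Of 23 listed, 22 were matched by symbol and 5 passed the filter, with a median correlation with Crxos of 0.344. Pramel6, from a family of early embryos, had a log2 fold change of -0.01 in LIF and rose in 2i+LIF (edgeR adjusted p 0.0075), where 1.63% of all genes did. Khdc1a, also called there, passed the filter only through 2i+LIF HP, so its level is a description. It had 380 counts in 2i+LIF HP, 0 in 2i+LIF LP and 0 in the 6 libraries of LIF LP and LIF HP, where Crxos differed 29.4-fold. Eif4e1b, a germ cell translation factor, was called higher in LIF (adjusted p 0.0469) and also passed only through its highest group. Dppa2 (r -0.32) and Dppa4 (r -0.467) were called in neither medium. Their log2 fold changes were -0.61 and -0.40 in 2i+LIF and -0.70 and -0.80 in LIF. With both libraries that stood apart left out, 3 listed genes were called higher in 2i+LIF (2.72% of all genes). In LIF 1 was then called higher and 1 lower (11.5% and 10.2%).

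Of 10 markers of the later epiblast 8 passed the filter, with a median correlation with Crxos of -0.55 (-0.615 without the CH+LIF libraries). In 2i+LIF Lef1, which is also on the Wnt list, was called higher and none lower, and in LIF Otx2 and Pou3f1 were called lower and none higher, beside 1.63% of all genes higher in 2i+LIF and 4.63% lower in LIF. Lef1 and Pou3f1 passed the filter only through their highest group. Dnmt3b, a DNA methyltransferase, had the lowest correlation (-0.722), with log2 fold changes of -1.32 (SE 0.38, edgeR, adjusted p of 0.0516) and -1.12 (SE 0.40, adjusted p 0.0693). Without both libraries that stood apart, 3 were called lower in 2i+LIF and 5 in LIF, beside 3% and 10.2% of all genes.

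Of 10 trophoblast markers, 6 passed the filter. Their median correlation with Crxos was 0.651 (0.693 without the CH+LIF libraries), near the 0.72 of the Wnt targets, with Eomes lowest at -0.171. In 2i+LIF 3 were called higher (Cdx2, Krt7 and Krt18), beside 1.63% of all genes. Cdx2 and Krt7 passed only through their highest group, 2i+LIF HP. Eomes had a log2 fold change of -1.56 (SE 0.54, edgeR, adjusted p 0.112) in 2i+LIF. In LIF none was called, with 1 called higher there without both libraries that stood apart (11.5% of all genes). Their summed level was 73.9 to 151.5 CPM in 2i+LIF HP and 25.2 to 56.8 in 2i+LIF LP, 30.2 to 43.8 in LIF HP and 5.98 to 22 in LIF LP, 21.9 to 39.6 in CH+LIF HP and 19 to 27.2 in CH+LIF LP, and 42.6 to 105 in PO. Elf5, a defining factor of trophoblast, had 0 counts in all libraries. The part of these genes in the Crxos values was not tested.

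Of germline markers, 7 of 8 passed, and in 2i+LIF Nanos3 rose (edgeR adjusted p 0.0329) and Prdm1 (r -0.837), a repressor that specifies germ cells, fell by 1.83 on the log2 scale (SE 0.43, adjusted p 0.015), beside 1.63% of all genes higher and 2.05% lower. In LIF 0 of the 7 were called, beside 9.96% of all genes. Their summed level was 188 to 566 CPM in 2i+LIF HP and 119 to 229 in 2i+LIF LP. Of primitive endoderm markers, 2 of 9 passed and Col4a1, a basement membrane collagen, was called lower in 2i+LIF (adjusted p 0.0244, beside 2.05% of all genes) and passed only through its highest group, with a summed level of 36.7 to 63.8 CPM in 2i+LIF HP and 33 to 82.7 in LP. Of fibroblast markers, 2 of 6 passed and none was called in either medium, near the 3.67% and 9.96% of all genes. With both of those libraries left out, 1 fibroblast marker was called lower in 2i+LIF (3% of all genes) and 1 primitive endoderm marker lower in LIF (10.2%).

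**Figure D4:**
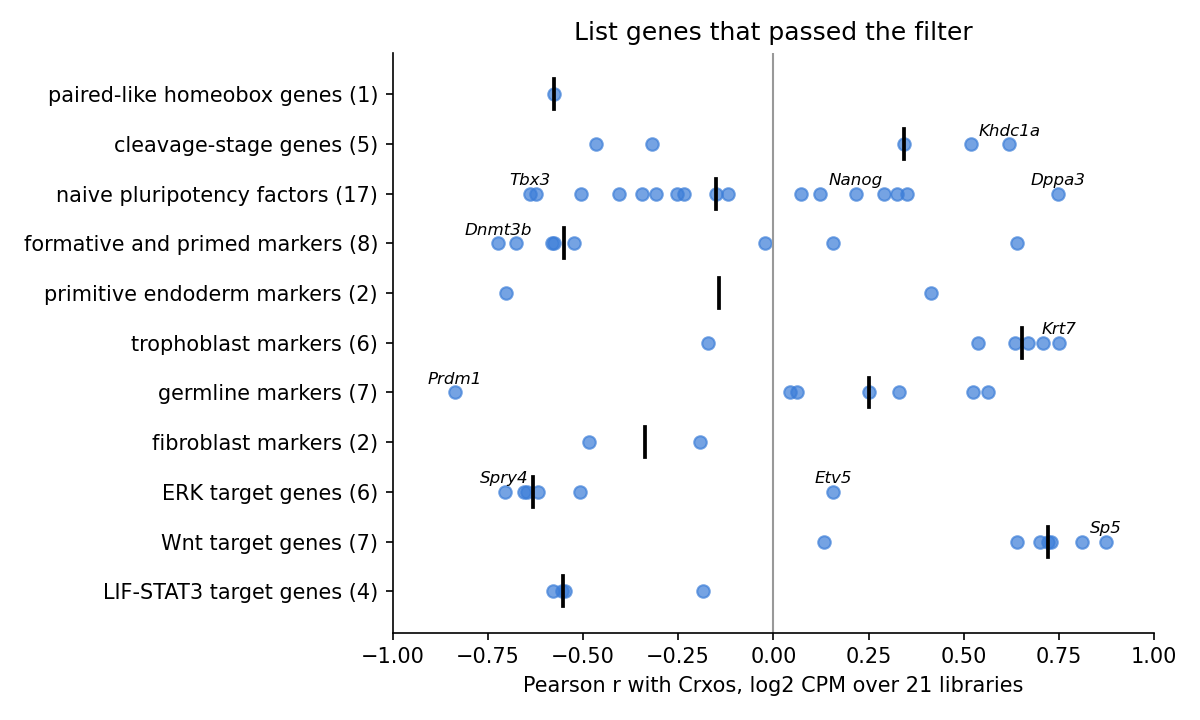
Pearson correlation with Crxos in log2 CPM over 21 libraries (x axis) of the genes that passed the filter in each of 11 lists (y axis, number in brackets). Points are genes and black bars are list medians. Wnt targets (median 0.72) and trophoblast markers (0.651) lie to the right. To the left lie ERK targets (median -0.632), LIF-STAT3 targets (-0.552), formative and primed markers of the later epiblast (-0.55) and Otx2 of the paired-like list (-0.575). Sp5 is at 0.872 and Prdm1 at -0.837.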

How the data were processed

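Messenger RNA was sequenced from 125 ng of total RNA per library. The authors deposited raw counts for each Ensembl gene ID, as whole numbers. The submitters' processing notes name bcl2fastq, STAR 2.6.0a, HTSeq and mm10; the annotation, strand setting and filters were not given in the sources used here. Closing entries that name no gene stayed out. Symbols came from GENCODE M21, which held 31011 of 31053 IDs.

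All 21 libraries entered 1 edgeR 4.0.16 quasi-likelihood fit (R 4.3.3) with 7 group coefficients, 14 residual degrees of freedom, TMM and filterByExpr, which kept 10643 genes. P-values are two-sided and adjusted by Benjamini-Hochberg over all genes, with a threshold of 0.05. The SE is the absolute log2 fold change divided by the square root of F. Log2 CPM used a prior count of 2; figures used log2(CPM + 1) where stated. Intervals cover counting error only.

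Crxos, the 11 gene lists, the motifs and the rule for named genes (Crxos, the 8 most and 4 least correlated genes, genes within 250 kb, list genes) were chosen with earlier results of these data known. Alternatives were DESeq2 1.42.0, its size factors, no TMM, no filter, thinning to 1132126 counts, only the groups compared, a replicate block, limma 3.58.1 voom with quality weights, removal of mitochondrial genes and Gm42418, and omission of libraries. List counts without both libraries that stood apart, and correlations and non-overlap without CH+LIF, were added after seeing the data. Steps were tested on simulated data. Same-numbered libraries deviated together in all 3 pairs (r over 0.1) only for 2i+LIF LP and PO, at 0.397, 0.345 and 0.179.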

Additional observations from a re-analysis of the deposited data

How the results depend on the processing

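The 8 Crxos contrasts without CH+LIF, the interaction and the test over 5 groups were recomputed under 31 alternatives, with no change of direction. HP against LP stayed past the threshold in all 31, with log2 fold changes of 3.61 to 4.49 in 2i+LIF and 4.36 to 5.12 in LIF (4.59 to 5.12 with 1 library left out), as did 2i+LIF HP against PO (2.57 to 3.23), LIF LP against PO (-3.43 to -2.85) and the difference among 5 groups. The interaction (0.26 to 1.24) never passed. Over the edgeR, DESeq2 and voom fits, the adjusted p of HP against LP reached at most 0.0225 in 2i+LIF and 5.5e-05 in LIF.

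LIF LP against 2i+LIF LP lost its call in 16: -1.82 without TMM, -2.15 with only the groups compared, -1.60 with voom, -1.62 without both libraries that stood apart, and -2.32 to -1.61 in the 12 that left out 1 library; all fits that left out 1 gave -2.35 to -1.61. LIF HP against 2i+LIF HP gained a call in 6: -1.56 without TMM, -1.24 without a filter, -1.11 with voom, -1.23 without both, -1.24 without PO replicate 1 and -1.25 without 2i+LIF LP replicate 1. All fits that left out 1 gave -1.49 to -0.86. 2i+LIF LP against PO gained a call in 3: -1.73 with voom, -1.82 without both and -1.33 without PO replicate 1, with -1.52 to -0.80 over all that left out 1. LIF HP against PO lost its call in 3: 1.40 without TMM, 1.41 without PO replicate 1 and 1.57 without LIF HP replicate 2, with 1.41 to 1.94 over all that left out 1. The causes were not tested.

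With the replicate block no Crxos call changed: 3.97 in 2i+LIF, 4.87 in LIF, -2.09 for LIF LP against 2i+LIF LP, -1.20 at HP, -1.04, 2.94, -3.13 and 1.74 for 2i+LIF LP, 2i+LIF HP, LIF LP and LIF HP against PO, 0.90 for the interaction, and an adjusted p of 1.51e-08 for the 5 groups. The numbers are not said to mark a shared day or passage.

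Counts of all genes called moved more. They were 52 to 672 (main value 391) for HP against LP in 2i+LIF and 399 to 2747 (1060) in LIF. They were 3 to 276 (52) for LIF LP against 2i+LIF LP and 123 to 1427 (402) for LIF HP against 2i+LIF HP. Against PO they were 1 to 1928 (539) for 2i+LIF LP, 328 to 2150 (1127) for 2i+LIF HP, 571 to 3274 (1272) for LIF LP and 424 to 2627 (1306) for LIF HP. They were 7 to 167 (16) for the interaction and 1903 to 5421 (2980) for the 5 groups. The LIF LP values rest on 44 Crxos counts in 3 libraries.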
